A study of Mus musculus with 2 samples.

Results

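The genes described here mark the enteric nervous system, the network of neurons and glia within the wall of the gut. A list of 34 mouse genes was used, made of neuropeptides, transmitter enzymes, pan-neuronal genes, neurotrophic signalling genes and glial genes. Of these, 33 had a probe set (a group of short probes against one transcript) that carries their symbol alone, among 18194 genes named in this way on the array. Calca, which encodes alpha-CGRP, had none and was not analysed here. Where a gene had several probe sets, the one with the highest mean over both arrays stood for it, and the others served as a check.

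RNA of small intestine (called transgenic gut and wild-type gut below) came from mice carrying an IL-9 transgene and from wild-type mice, all on the BALB/c background, aged 6 to 8 weeks and given no treatment. IL-9 is a type 2 cytokine that promotes mast cell growth, and the study asks how IL-9 and mast cells bear on gut permeability and on hypersensitivity to antigen given by mouth. Each of the 2 arrays carried 1 pool of 3 mice. The labels do not name the promoter of the transgene or the segment of small intestine taken. With 1 array a group, no difference below has a replicate check, the spread between mice is unknown and no test was possible.

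Enteric neurons lie in ganglia between the muscle layers and in the submucosa. They arise from neural crest cells under the control of GDNF acting on its receptor RET and of endothelin 3 acting on EDNRB. Motor neurons that relax the muscle use nitric oxide and VIP, and secretomotor neurons of the submucosa use VIP or acetylcholine to drive secretion by the epithelium. Enteric glia surround the neurons and express SOX10, S100B and GFAP. The tissue RNA holds far more epithelium and muscle than nerve, so fewer neurons and less RNA per neuron cannot be told apart here.

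The values are probe set intensities, analysed as log2(intensity + 1), and each difference is transgenic minus wild type. Folds were taken from these log2 values, so those of dim genes are understated. The median intensity of all probe sets was 78.7 in transgenic gut and 78.3 in wild-type gut, and the median difference over all genes was 0.01. The expression filter asked that the mean of a gene's 2 log2 values be at least 6.31, the median over all probe sets, which is an intensity of 78.5. This filter kept 11627 genes, among them 19 of the 33 measured genes of the nervous system, and 14 lay under it. Of the genes past it, 95% differed by between -0.48 and 0.49. Where a gene had several probe sets past the filter (4837 genes), their differences had an SD of 0.23 within a gene, which describes the arrays and not the mice. Il9 read 62.2 in transgenic gut and 71.6 in wild-type gut on its 1 probe set, so this value does not check the labels. The ratio of the 3′ to the 5′ probe set of actin, a sign of RNA integrity, was 1.33 in transgenic gut and 1.61 in wild-type gut.

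Neuropeptide genes differed between the pools in both directions. Vip was lower by over 2-fold in the transgenic pool and Grp higher by over 2-fold, while 10 of 11 pan-neuronal genes were lower by small amounts and the 3 glial genes differed by at most 0.24. Past the filter, 1 of 19 genes was higher by 2-fold (0.525% of all genes past the filter were) and 1 was lower by 2-fold (0.181% of all genes). The higher one, Grp, passed the filter only through its transgenic value, so its count supports nothing beyond its own values. At 1.5-fold, 1 was higher (1.55% of all genes) and 2 were lower (1.41% of all genes). Over all 33 measured genes the median difference was -0.06, with 12 above 0 and 20 below 0, where 51.3% of all genes lay above 0 and 46.4% below.

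**Figure D1:**
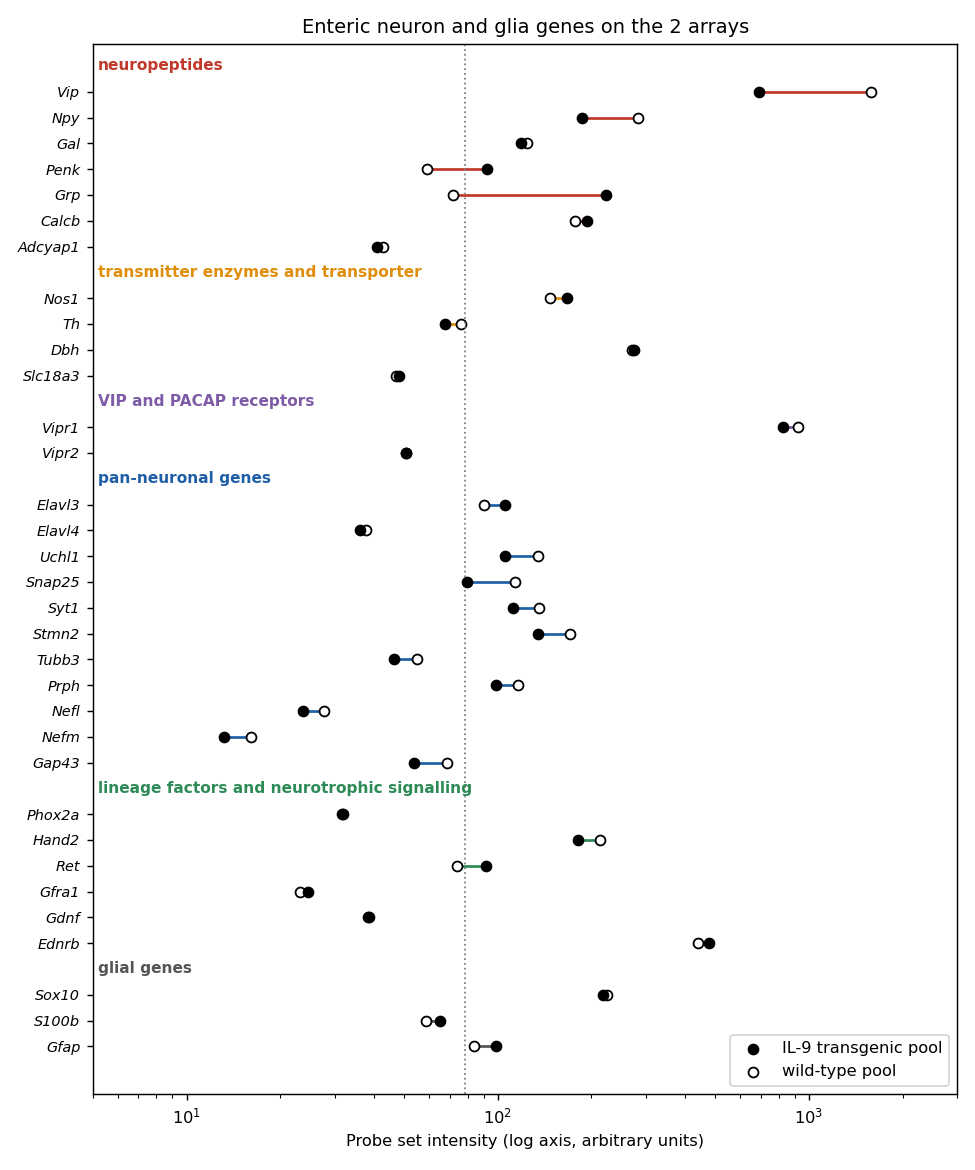
Intensity of each gene's probe set on a log axis, in the IL-9 transgenic pool (filled) and the wild-type pool (open), 1 array each, with genes grouped by role and the dotted line at the filter intensity of 78.5. Only the 2 points of a row can be compared, since probe sets differ in brightness. The widest gaps are those of Vip and Grp, which run in opposite directions, and 10 of the 11 pan-neuronal genes have the filled point on the left.

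Vip, which encodes the relaxant and secretory peptide VIP, read 693 in transgenic gut and 1587 in wild-type gut. The difference was -1.19, or 2.29-fold lower in the transgenic pool, and 12 of the 11627 genes past the filter had a lower one. Npy, the gene of neuropeptide Y, found in enteric neurons and in sympathetic fibres, read 186 in transgenic gut and 282 in wild-type gut, 1.51-fold lower and only just past 1.5-fold. Each of these 2 genes had a single probe set, so no second probe set can check them.

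Grp, the gene of gastrin-releasing peptide, which excites gut muscle and endocrine cells, read 223 in transgenic gut and 71.8 in wild-type gut. It was 3.07-fold higher, with 22 genes past the filter above it, and its wild-type value lay under the filter intensity. Penk, the precursor of the enkephalins, opioid peptides that slow motility, read 92.6 in transgenic gut and 59.1 in wild-type gut, a difference of 0.64, and its mean lay under the filter. These 2 peptide genes also had 1 probe set each.

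The other 3 measured peptide genes were nearly equal in the pools. Gal, the galanin gene, read 119 in transgenic gut and 124 in wild-type gut. Calcb, which encodes beta-CGRP, the main CGRP of enteric sensory neurons, read 193 in transgenic gut and 178 in wild-type gut, and as a close paralog of Calca it may share probes with it. Adcyap1, the gene of the VIP relative PACAP, read 40.9 in transgenic gut and 42.8 in wild-type gut, under the filter. Differences of the 7 measured peptide genes thus ran from -1.19 to 1.62 around a median of -0.06. The summed intensity of the 7 was 1547 in transgenic gut and 2344 in wild-type gut, a sum that Vip dominates.

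**Figure D2:**
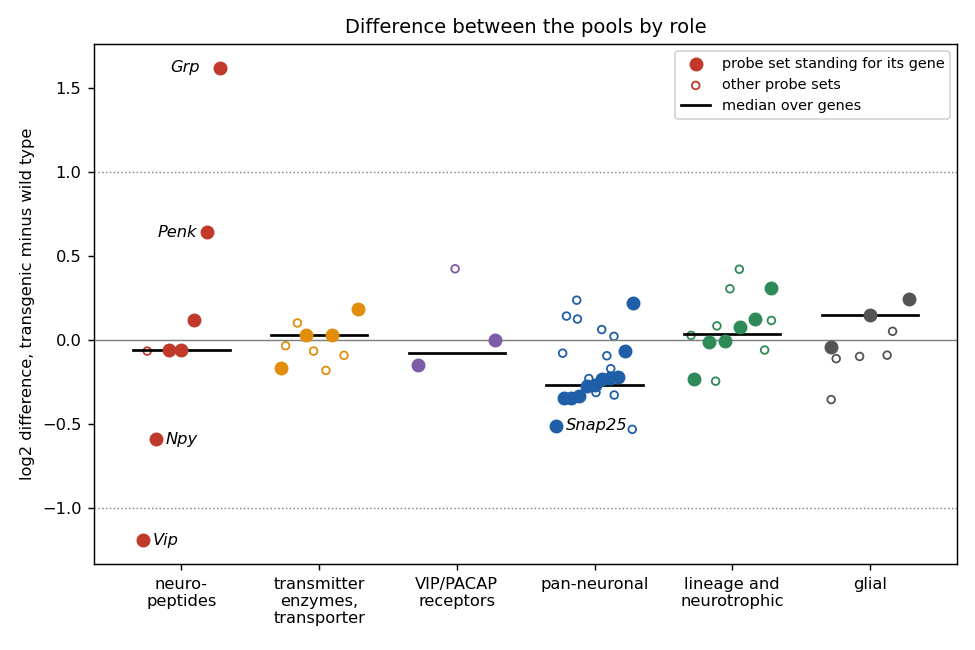
Log2 difference, transgenic minus wild type, of every probe set of the 33 genes by role. Large points stand for a gene, open points are its other probe sets, black bars are medians over genes and dotted lines mark 2-fold. The neuropeptides spread from -1.19 to 1.62, the pan-neuronal genes lie mostly between -0.51 and 0, and the other roles stay within 0.31 of 0 in the points that stand for genes.

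The VIP gene responds to cyclic AMP through a response element (CRE) upstream of its start, so the windows upstream of Vip and Npy, the peptide genes that were lower, and of Gal, which was nearly equal, are shown for context. Each is the 250 bases before the gene start in RefSeq on GRCm38.p6, written 5′ to 3′ on the gene's strand. Capitals mark the CRE core TGACG on either strand, or the TATA box letters TATAAA on the gene's strand.
Vip, chr10:5638968-5639217, plus strand: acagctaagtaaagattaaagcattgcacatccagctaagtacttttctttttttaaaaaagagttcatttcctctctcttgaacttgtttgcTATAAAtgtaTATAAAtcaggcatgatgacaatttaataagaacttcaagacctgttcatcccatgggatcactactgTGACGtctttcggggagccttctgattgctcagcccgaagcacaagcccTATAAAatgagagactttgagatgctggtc
Npy, chr6:49822460-49822709, plus strand: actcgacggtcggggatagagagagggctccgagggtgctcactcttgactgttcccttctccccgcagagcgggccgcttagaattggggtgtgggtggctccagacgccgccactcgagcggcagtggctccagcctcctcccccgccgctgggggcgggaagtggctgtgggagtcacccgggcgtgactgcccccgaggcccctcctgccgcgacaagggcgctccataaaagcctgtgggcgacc
Gal, chr19:3414545-3414794, minus strand: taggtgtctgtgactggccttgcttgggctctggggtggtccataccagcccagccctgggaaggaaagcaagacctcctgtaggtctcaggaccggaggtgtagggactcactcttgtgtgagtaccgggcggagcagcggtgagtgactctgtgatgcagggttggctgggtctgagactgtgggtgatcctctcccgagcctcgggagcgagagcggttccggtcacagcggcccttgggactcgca
The Vip window holds TGACG 1 time, starting 79 bases before the gene start, and TATAAA starting 30, 147 and 157 bases before it. The Npy and Gal windows hold neither. Of 27025 genes with such a window, 19.8% held TGACG on either strand and 8.94% held TATAAA. Among the 34 listed genes, 24 had a window, of which 12 held TGACG (Adcyap1, Calca, Dbh, Ednrb, Elavl4, Gdnf, Hand2, Nos1, Slc18a3, Th, Vip and Vipr1) and 5 held TATAAA. The full palindrome TGACGTCA, which contains the core on both strands, was in the window of Th and in 1.77% of all genes with a window. These matches describe the letters only.

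Receptors of VIP and PACAP showed no difference that their probe sets share. Vipr1, the VPAC1 receptor, read 828 in transgenic gut and 920 in wild-type gut on its brightest probe set, a difference of -0.15. Its second probe set lay at 0.42, so no direction is given. Vipr2, the VPAC2 receptor of smooth muscle, read 50.7 in both pools, under the filter.

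Genes for transmitters other than peptides were close to equal in the pools. Nos1, the neuronal nitric oxide synthase that is co-expressed with Vip in inhibitory motor neurons, read 167 in transgenic gut and 147 in wild-type gut, a difference of 0.18. Its other 3 probe sets lay between -0.18 and 0.10, all of them under the filter, where background signal compresses differences. Dbh, which makes noradrenaline from dopamine, differed by 0.03 on a probe set that can match other transcripts, and its other probe sets lay at -0.04 and -0.07. Th, the first enzyme of catecholamine synthesis, read 67.5 in transgenic gut and 76.1 in wild-type gut, and Slc18a3, the vesicular acetylcholine transporter, 48.0 in transgenic gut and 47.1 in wild-type gut. Both lay under the filter.

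Pan-neuronal genes were lower in the transgenic pool in 10 of 11 cases, where 46.4% of all genes lay below 0. Their median difference was -0.27, and each of the 11 differed by less than 1.5-fold. Of the 11, 6 passed the filter, of which 5 lay below 0 (47.7% of genes past the filter did). Snap25, a SNARE protein of transmitter release, read 79.6 in transgenic gut and 114 in wild-type gut, the widest gap of the group at -0.51. Uchl1, the ubiquitin hydrolase PGP9.5 used to stain enteric neurons, read 105 in transgenic gut and 135 in wild-type gut, a difference of -0.35.

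Stmn2, a microtubule regulator of growing axons, read 135 in transgenic gut and 171 in wild-type gut, and its second probe set was also lower, at 62.5 against 91.0. Syt1, the calcium sensor of vesicle release, read 112 in transgenic gut and 135 in wild-type gut, and Prph, the intermediate filament peripherin, 98.9 in transgenic gut and 116 in wild-type gut. The exception was Elavl3, a neuronal RNA-binding protein, at 105 in transgenic gut and 90.4 in wild-type gut, a difference of 0.22. Its relative Elavl4 differed by -0.07 and lay under the filter.

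The remaining 4 were also under the filter and lower in the transgenic pool. Gap43, a growth cone protein, read 53.6 in transgenic gut and 68.5 in wild-type gut, and Tubb3, neuronal beta-tubulin, 46.6 in transgenic gut and 54.9 in wild-type gut. The neurofilament genes Nefl and Nefm differed by -0.22 and -0.27 at intensities of at most 27.7, where background signal compresses differences. Over all 24 probe sets of the 11 genes, 18 lay below 0, and the median was -0.23. Of 7 genes with several probe sets, 4 had all of them on one side of 0. Elavl4, Snap25 and Stmn2 lay below 0 and Elavl3 above it. Prph, Nefl and Syt1 each had a probe set above 0, at 0.24, 0.12 and 0.06, and their others below.

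Glial genes differed little between the pools, and their probe sets disagreed in sign. Sox10, the transcription factor of neural crest and glia, read 218 in transgenic gut and 225 in wild-type gut, a difference of -0.04. Gfap, the glial intermediate filament, read 99.0 in transgenic gut and 83.6 in wild-type gut, and S100b, a calcium-binding protein of glia, 65.2 in transgenic gut and 58.7 in wild-type gut, under the filter. Their median of 0.15 rests on 3 genes, each with probe sets on both sides of 0. Of their 8 probe sets, 5 lay below 0 and the median was -0.07, and the third probe set of Sox10 lay at -0.36. No direction is given for the glial genes.

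Lineage and neurotrophic genes had a median difference of 0.03 over 6 genes, with 3 above 0 and 3 below. Ret, the GDNF receptor kinase, read 91.6 in transgenic gut and 73.8 in wild-type gut, with its second probe set at -0.25 against 0.31 for the first. Ednrb, the endothelin receptor of neural crest cells that is also found in other cells of the gut wall, read 478 in transgenic gut and 438 in wild-type gut, and its 3 probe sets lay between 0.13 and 0.42. Hand2, a transcription factor of enteric neuron differentiation that is also expressed in gut mesenchyme, read 181 in transgenic gut and 213 in wild-type gut, with its dimmer probe sets at 0.03 and 0.11. Phox2a, a transcription factor of autonomic neurons, Gdnf and its co-receptor gene Gfra1 lay under the filter and differed by -0.01, -0.01 and 0.07.

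**Figure D3:**
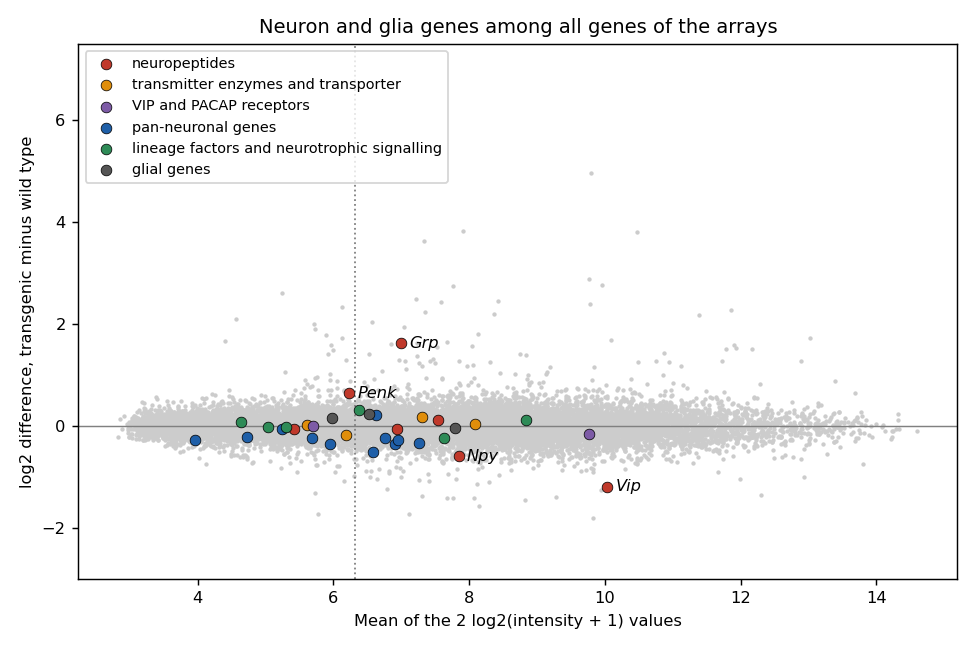
Log2 difference, transgenic minus wild type, against the mean of the 2 log2 values for all 18194 genes (grey), with the 33 genes coloured by role and the dotted line at the filter of 6.31. Vip at -1.19 and Grp at 1.62 lie outside the range of -0.48 to 0.49 that holds 95% of the genes past the filter. So do Npy at -0.59 and, by a small margin, Snap25 at -0.51. Penk at 0.64 lies under the filter, so it is not among the genes that this range describes.

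Set side by side, the median of the neuropeptides was -0.06, that of the pan-neuronal genes -0.27 and that of the glial genes 0.15. The neuropeptide median was 0.21 above the pan-neuronal one, and between 0.14 and 0.33 above it over the alternative settings. The neuropeptide median minus the glial one was -0.21, and ran from -0.26 to -0.07 over those settings. Taken over all probe sets, however, the medians were -0.06 for the neuropeptides and -0.07 for the glial genes. No direction is therefore given for this gap. The medians hide the spread of the peptides, since Vip lay 0.93 below the pan-neuronal median and Grp 1.89 above it.

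Lists for neighbouring cell types of the gut wall were read beside the neuronal values. The smooth muscle list, whose layers hold the ganglia, had a median of 0.01 over 15 genes and a summed intensity of 38632 in transgenic gut and 37926 in wild-type gut. Its ends were Pln, phospholamban, at -0.46 and Des, desmin, at 0.34. The pan-neuronal median lay 0.27 below the smooth muscle median, a comparison that was not planned in advance. The 2 lists differ in brightness: all 15 smooth muscle genes passed the filter, while 5 of the 11 pan-neuronal genes lay under it. With medians taken past the filter, the pan-neuronal minus the smooth muscle median was -0.31. The pan-neuronal sum was 809 in transgenic gut and 966 in wild-type gut. Interstitial cells of Cajal, the pacemaker cells beside the ganglia, had 5 of 8 listed genes measured and a median of 0.02. Their channel gene Ano1 differed by 0.25, and Kit, which mast cells share, by 0.71. Enteroendocrine cells, which also express peptides and release genes, had a median of 0 over 17 genes, with Tph1 highest at 0.61 and Nts lowest at -0.26.

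Lists for mast cells, fat and exocrine pancreas were higher in sum in the transgenic pool. Of 12 mast cell genes 11 lay above 0, where 51.3% of all genes did, and 5 of the 12 lay under the filter. Their summed intensity was 6073 in transgenic gut and 1437 in wild-type gut. All 7 measured adipocyte genes of 9 listed lay above 0, 2 of them under the filter (sums of 2214 in transgenic gut and 1534 in wild-type gut). Of 7 measured exocrine pancreas genes of 9 listed, 4 lay above 0, near the share of all genes. Their median was 0.15 (sums of 15135 in transgenic gut and 4425 in wild-type gut). Pnliprp2 and Clps, a lipase-related gene and colipase, make up most of that sum. Pnliprp1 had the highest difference of the list, at 2.44, while the protease genes Cela1, Prss2 and Ctrb1 differed by -0.05, -0.08 and -0.07. The small intestinal epithelium was represented by 10 measured genes of 11 listed, all past the filter. Of these, 7 lay below 0, where 47.7% of genes past the filter did (sums of 106532 in transgenic gut and 112270 in wild-type gut). No gene of these lists read 0, the lowest being 14.3. Whether the differences between these lists reflect tissue make-up, and whether they bear on the neuronal values, was not tested.

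**Figure D4:**
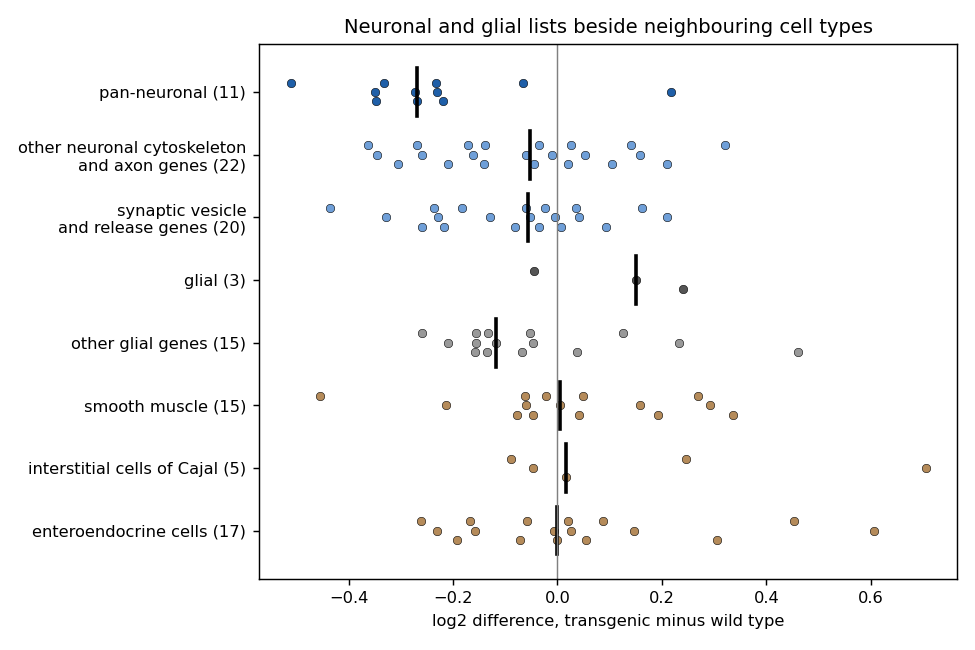
Log2 difference, transgenic minus wild type, of each measured gene (points, number in brackets) in neuronal and glial lists and in lists of neighbouring cell types, with black bars at the medians. The pan-neuronal median of -0.27 is the lowest of the 8 lists, the other neuronal lists have medians of -0.05 and -0.06, and smooth muscle sits at 0.01.

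Further genes of the same processes were taken as lists. Of 72 such genes past the filter, 0 differed by 2-fold, and 1 was higher and 0 were lower by 1.5-fold, where 1.55% and 1.41% of all genes were. Of 22 other neuronal cytoskeleton and axon genes 14 lay below 0 (46.4% of all genes did), with a median of -0.05. Past the filter 7 of 11 did (47.7% of genes past the filter did), with a median of -0.14. Tubb2b, a beta-tubulin of developing neurons, read 154 in transgenic gut and 199 in wild-type gut, and Stmn3, a relative of Stmn2, 157 in transgenic gut and 195 in wild-type gut. Ndrg4, which is expressed in enteric neurons, differed by -0.27. Of 20 measured synaptic vesicle and release genes (23 listed) 14 lay below 0, with a median of -0.06, but past the filter 6 of 12 did and the median was 0.0012. Syp, the vesicle protein synaptophysin, read 141 in transgenic gut and 177 in wild-type gut, while Cplx1, complexin, differed by -0.26 and Sncb, beta-synuclein, by 0.21. Over all measured genes both medians lie nearer to 0 than the pan-neuronal median of -0.27, and the ranges of the 3 lists overlap.

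Of 15 measured genes for other neuropeptides and their processing (17 listed) 9 lay above 0 and 6 below, with a median of 0.03. Past the filter the direction turned, with 5 above, 6 below and a median of -0.13. Nmu, neuromedin U of cholinergic enteric neurons, read 269 in transgenic gut and 207 in wild-type gut. Scg2, a granin of secretory granules, read 220 in transgenic gut and 277 in wild-type gut, and Cpe, a carboxypeptidase that trims propeptides, 1062 in transgenic gut and 1351 in wild-type gut. Of 21 measured neuropeptide receptors (22 listed) 15 lay above 0 (51.3% of all genes did), with a median of 0.07. The highest was Nmur1, the neuromedin U receptor of type 2 innate lymphoid cells, at 148 in transgenic gut and 102 in wild-type gut, a difference of 0.54. Ramp1, which makes the CGRP receptor with Calcrl, differed by 0.39 and Tacr1, the substance P receptor, by 0.34.

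In the list of other transmitter genes 20 of 21 were measured, 13 of them below 0, with a median of -0.08, but past the filter 4 of 8 were below and the median was 0.03. Slc6a4, the serotonin transporter, which the gut epithelium also expresses, was 1.52-fold higher at 2302 in transgenic gut and 1514 in wild-type gut. Htr3a, a serotonin-gated channel subunit, read 94.6 in transgenic gut and 128 in wild-type gut, and Nos1ap, an adaptor that binds neuronal nitric oxide synthase, 225 in transgenic gut and 313 in wild-type gut. Among 17 measured lineage and neurotrophic genes beyond those above (23 listed) 13 lay above 0 (51.3% of all genes did), with a median of 0.08. Past the filter 8 of 10 did, with a median of 0.07. Nrtn, the GDNF relative neurturin, differed by 0.38, Edn3, the ligand of EDNRB, by 0.29 and Zeb2, a transcription factor of neural crest, by -0.36. Of 15 measured other glial genes (18 listed) 11 lay below 0 (46.4% of all genes did), with a median of -0.12. Past the filter 8 of 10 did (47.7% of genes past the filter did), with a median of -0.13. The list is not separate from the others, since L1cam is also among the axon genes and Gfra2 among the lineage genes. L1cam, an adhesion molecule that is also on axons, differed by -0.26, Scn7a, a sodium channel of glia, by -0.21 and Apoe, which macrophages and other cells also make, by 0.23.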

How the data were processed

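The table deposited by the authors gives the intensity of 45101 probe sets on a linear scale; values run from 5.60 to 24147 in the transgenic pool and from 5.75 to 25799 in the wild-type pool. Per the submitters' processing notes, RMA was used, with its version, any later scaling and the chip annotation not given in the sources used here. RMA draws the distributions of arrays together, so a shift common to most genes cannot be seen. No detection calls were used, and the number of arrays limits the precision.

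Samples were grouped by the source in their labels. Names came from a platform annotation table, in which 34958 probe sets had 1 symbol, 932 several and 9211 none. The Entrez identifiers of all 33 measured genes carried the same symbol in RefSeq (GRCm38.p6). Values were taken as log2(intensity + 1), with pandas 2.3.3 and numpy 2.4.6, and the 2-fold calls were tested on simulated data. That simulation held only large changes in genes well above the filter, so it does not cover small differences or dim genes. The genes that could be named were the 33 measured ones, the 3 largest differences past the filter in each other list, and any gene of the smooth muscle, Cajal cell and other glial lists; not all of these were printed. Nts, Cela1, Prss2, Ctrb1, Slc18a1, Slc18a2, Tph2 and Htr4 were named after their values were seen. Genes and lists were chosen with earlier results of these data known. Alternatives covered the probe set, pseudocount, normalization and filter.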

Additional observations from a re-analysis of the deposited data

How the results depend on the processing

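Counts and medians were recomputed under 9 alternatives, giving 129 values, of which 120 stayed within 1.5 times the reported count or within 0.23 of the reported median. The margin of 0.23 is wider than the size of every role median except the pan-neuronal one. It is also wider than the gaps of 0.21 and -0.21 from the neuropeptide median, so staying within it does not settle a sign. With the filter at the 75th percentile of all values, 0 genes were higher by 2-fold, 0 were higher and 1 was lower by 1.5-fold, and the neuropeptide median was -1.19, because Vip was then the 1 peptide gene tested; no glial or pan-neuronal gene was left to give a median. Without a filter, or with the filter on the higher of the 2 values, 2 genes were higher by 1.5-fold, since Penk was then counted. With a pseudocount of 32, 1 gene was lower by 1.5-fold, since Npy fell short of it. The count of pan-neuronal genes below 0, a result added after seeing the data, was 5 of 6 when tested past the filter at the median or on the higher value. The pan-neuronal median ran from -0.30 to -0.18, the difference of Vip from -1.20 to -1.16 and that of Grp from 1.30 to 1.63. Signs differed in 3 of 197 values for single genes, those of Dbh and Vipr1. That count says little about direction, since an equal pseudocount cannot change a sign and 15 genes had 1 probe set. Of the 18 genes with several probe sets, 12 had them on both sides of 0. Medians near 0 also changed sign: that of the neuropeptides was 0.03 with the filter on the higher value, that of the VIP and PACAP receptors 0.07 with the mean over probe sets, and that of the transmitter enzymes and transporter -0.01 with the mean over probe sets and -0.0049 without probe sets ending in _s_at, _x_at or _a_at. Sox10 gave no value without those probe sets. No paired analysis was possible because each group has 1 array. One pool per group leaves the spread between mice unmeasured, and genes under the filter carry little signal over background.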

Other observations

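The serotonin genes Tph1 and Slc6a4 had the largest differences past the filter in their lists, and were paired here for that reason. Both were higher in the transgenic pool by nearly the same factor. Of all genes past the filter, 1.55% were higher by 1.5-fold. Tph1, the hydroxylase that makes serotonin in enterochromaffin cells and mast cells, read 188 in transgenic gut and 123 in wild-type gut, 1.52-fold higher, and Slc6a4, the serotonin transporter, was also 1.52-fold higher. The next enzyme of the pathway, Ddc, which was chosen after its value was seen, read 2602 in transgenic gut and 3111 in wild-type gut. The receptor subunit gene Htr3a differed by -0.44. Further genes tied to serotonin went both ways: Slc18a1, Tph2 and Htr4 differed by -0.03, -0.14 and -0.14, and Slc18a2 by 0.34. Tph2, Htr4 and Slc18a2 lay under the filter. Each value is a single measurement of a pool.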
